A study of Bos grunniens and Bos grunniens x Bos taurus with 12 samples.

Results

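The genes described here were read by ribosomes in the testis of the 6-month-old yak and were low in the testis of both the 4-year-old yak and the 4-year-old cattle–yak. They were chosen by their CPM, the count of a gene relative to the total count of its library, scaled to a common total. A gene was taken if it had at least 10 CPM in each of the 3 libraries of 6 months and if each of the 6 adult libraries held at most 15% of its lowest 6-month CPM. Of 20965 genes in the tables, 7324 reached 10 CPM in each 6-month library, and 64 met both limits. Another 9 genes that met them were collagen chains and were left out by their symbols, so collagens are not part of the set. A symbol is given in the deposited tables for 51 of the 64, and the other 13 are named here from the protein in their description.

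Ribosome profiling (Ribo-seq) sequences the short RNA fragments that ribosomes protect, and the number of fragments on a gene is taken as its translation level. Testis tissue was sampled from yak (*Bos grunniens*) of 6 months, labelled as the juvenile stage, of 18 months, labelled as puberty, and of 4 years, labelled as sexual maturity, and from cattle–yak of 4 years, also labelled as sexually mature. The cattle–yak is the sterile male hybrid of Jersey cattle sires and Gannan yak dams, so each of its cells holds a cattle and a yak genome. Each group had 3 libraries from separate animals, and no treatment is named for any of them. According to the labels every testis came from castration, whereas the study's methods give castration for the cattle–yaks and euthanasia for the 4-year-old yaks.

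Before puberty the seminiferous tubules hold immature Sertoli cells and a few early germ cells, and the tissue between and around them is still being laid down. With puberty Sertoli cells stop dividing and mature, germ cells enter meiosis, and spermatids come to fill the tubules. In the hybrid spermatogenesis is arrested and few or no spermatids form, while the somatic cells remain. Whole testis was profiled, so fewer cells of a type and less RNA per cell cannot be told apart in any value below. No RNA-seq of these samples was analysed here, so a lower ribosome count cannot be divided into less RNA and less translation per RNA.

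Total counts ran from 16304058 to 52616039 per library, and 3 counts, taken as the limit of detection, equalled 0.0570 to 0.184 CPM. Markers set the 18-month libraries apart from each other. *TNP1*, the transition protein of spermatids, had an FPKM (fragments per length of gene and per total of the library) of 0, 6016 and 9.72 in 18-month replicates 1, 2 and 3, against 6993 to 10154 at 4 years and at most 23.5 in cattle–yak. The summed FPKM of 7 elongating spermatid markers was 2.78, 7043 and 15.5 in the same 3 libraries. Replicate 2 was thus the only 18-month library with spermatid markers near the adult level, and results that rest on the 18-month group are given with and without single libraries. Sertoli cell markers were present in every library: *SOX9* had an FPKM of 70.1 to 117 at 6 months, 56.9 to 128 at 18 months, 29.7 to 42.6 at 4 years and 190 to 209 in cattle–yak. The summed FPKM of 13 immature Sertoli cell markers, *SOX9* among them, was 6400 to 7833 at 6 months. It was 6577, 2350 and 3519 in 18-month replicates 1, 2 and 3, 881 to 1187 at 4 years and 1960 to 2248 in cattle–yak. For 11 mature Sertoli cell markers the sum was 1279 to 1986 at 6 months and 1792, 1324 and 1493 at 18 months. It was 1098 to 1529 at 4 years and 1717 to 2051 in cattle–yak. *AMH* and *INSL3* are not listed by symbol and were not analysed here.

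The rule fixed that the 64 genes were low in adults, so the following values describe the set and test nothing. Together they took 3.37%, 2.60% and 2.11% of the counts in the 6-month libraries (replicates are given in the order 1, 2, 3 here and below). In 18-month libraries they took 1.62%, 0.320% and 0.304%, at 4 years 0.0558%, 0.0624% and 0.0619%, and in cattle–yak 0.106%, 0.131% and 0.118%. The mean level of a member at 4 years was 0.0364% to 11.2% of its 6-month mean, with a median of 3.13%. In cattle–yak it was 0.0420% to 13.2%, with a median of 5.04%. The low ends of both ranges belong to *PDIA2*, which was under the limit of 3 counts in every adult library, so they are not measured levels. Low did not mean absent, since 9 members kept at least 10 CPM in all 6 adult libraries and only *MAGEL2*, *LAMP5* and *PDIA2* stayed under 1 CPM in all of them. Of all 7324 genes with 10 CPM at 6 months, 17.8% had every adult library below every 6-month library, which the rule requires of the members. At the limit itself *P4HA2* (14.8%), *TLE6* (14.5%) and *CHRDL1* (14.4%) lay just inside, and *RHBDL2* (15.04%), *CRISPLD1* (15.3%) and *ZBED3* (15.3%) just outside.

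**Figure D1:**
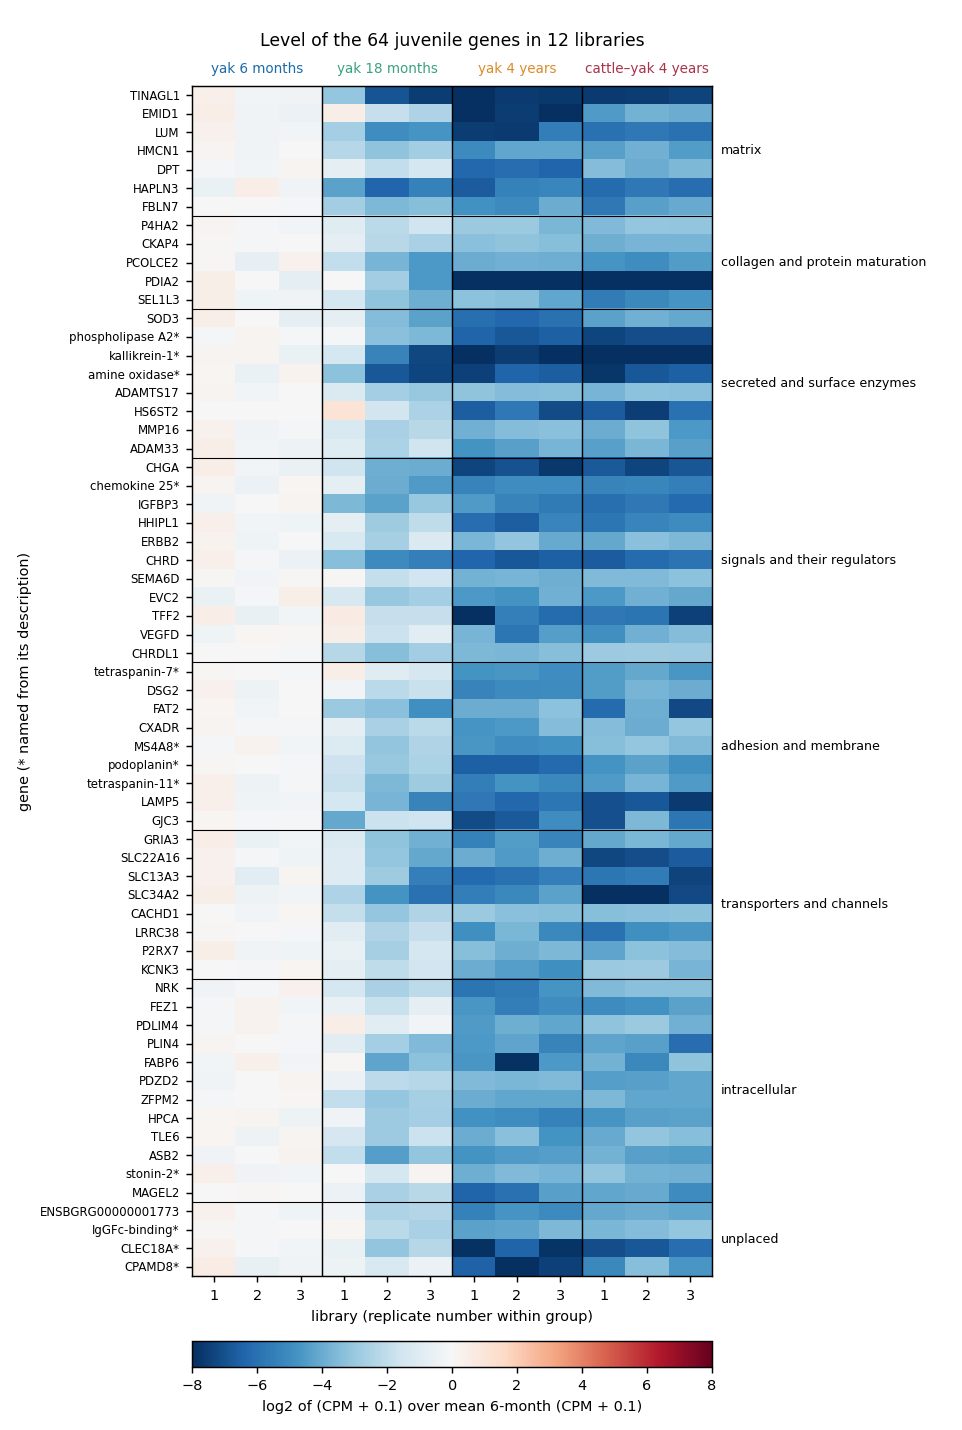
Level of each of the 64 genes (lines) in each of the 12 libraries (columns), as the log2 of CPM + 0.1 over the same sum for the gene's 6-month mean; blue is lower and red higher, and the colour is saturated at the ends of its scale. The adult columns are blue throughout, as the rule requires, while 18-month replicate 1 is pale in most lines and replicates 2 and 3 lie in between.

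What the members have in common beyond the rule was read from the deposited annotation. Of 43 members with a cellular component, 11 (25.6%) were annotated to the plasma membrane, 4 (9.30%) to the extracellular region and 3 (6.98%) to the extracellular matrix. The shares of all annotated genes with 10 CPM at 6 months were 13.6%, 1.84% and 0.938%. The nucleus was the reverse, with 16.3% of members against 26.2%. Proteolysis stood with 5 of 45 annotated members (11.1%) against 2.46%, and calcium ion binding with 6 of 49 (12.2%) against 3.64%. A single member, *ZFPM2*, is assigned to a transcription factor family, against 5.61% of the 7324 genes. These shares are descriptions and were not tested. By their known roles the 64 genes were sorted into 8 groups after the members were known. *SEL1L3* and *SLC34A2*, and likewise *P4HA2* and *PDLIM4*, lie within 5 protein-coding genes of each other in the RefSeq annotation of the yak assembly Bosgru_T2T1.0, in which 50 of the 51 symbols were found.

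Structural proteins of the extracellular matrix formed a group of 7. *TINAGL1*, which encodes a basement membrane glycoprotein, had 1128, 724 and 692 CPM at 6 months. Its 18-month libraries had 101, 6.90 and 4.32 CPM, the 4-year libraries 1.85, 4.14 and 3.99 and the cattle–yak libraries 4.03, 4.38 and 4.81. In 18-month replicates 2 and 3 *TINAGL1* was therefore already near its adult level. *LUM* encodes lumican, a small leucine-rich proteoglycan that binds collagen fibrils. Its CPM was 692, 450 and 463 at 6 months, 79.7, 16.6 and 19.97 at 18 months, 2.70, 2.52 and 11.5 at 4 years and 8.29, 10.1 and 8.27 in cattle–yak. *HAPLN3*, a link protein that holds proteoglycans on hyaluronan, went from 53.5, 112 and 63.9 CPM at 6 months to 3.78, 0.845 and 1.71 at 18 months, and its adult libraries had 0.674 to 1.96 CPM. In *LUM* and *HAPLN3* all 18-month libraries lay below all 6-month ones, and the adult groups overlapped. *EMID1*, which encodes a secreted protein with an EMI domain, behaved otherwise. It had 839, 481 and 429 CPM at 6 months, 804, 166 and 104 at 18 months, 0.843, 2.97 and 1.72 at 4 years and 25.6, 42.3 and 36.4 in cattle–yak. Every cattle–yak library of *EMID1* was thus well above every 4-year yak library, and 18-month replicate 1 lay within the 6-month range. *DPT* encodes dermatopontin, which helps to assemble collagen fibrils. Its CPM was 102, 92.6 and 125 at 6 months, 63.1, 27.2 and 40.1 at 18 months, 1.29, 1.46 and 1.23 at 4 years and 9.50, 6.71 and 8.87 in cattle–yak. The adult groups did not overlap in *DPT*. The large fibulin relative *HMCN1* had a mean of 277 ± 43.8 CPM at 6 months (SD, n = 3), and the small one *FBLN7* 22.3 ± 1.17 (SD, n = 3).

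Genes of collagen and protein maturation were the least reduced of the 8 groups in 4-year-old yak, with a median of 8.15% of the 6-month mean over 5 members. In cattle–yak their median was 3.77%, within a range of 2.44% to 5.70% over the 8 groups. *P4HA2*, a prolyl hydroxylase that stabilises the collagen helix, had 538, 435 and 398 CPM at 6 months, 237, 103 and 154 at 18 months, 58.8, 58.9 and 36.4 at 4 years and 39.6, 52.4 and 50.3 in cattle–yak. *CKAP4*, a membrane protein of the rough endoplasmic reticulum, had 420, 371 and 372 CPM at 6 months and 230, 82.4 and 63.6 at 18 months. Its adult libraries ranged from 36.9 to 42.0 CPM at 4 years and from 25.3 to 29.3 in cattle–yak. Both genes thus stayed above 10 CPM in every adult library. *PCOLCE2*, which enhances the trimming of procollagen, had 248, 150 and 297 CPM at 6 months, 60.1, 17.5 and 9.37 at 18 months, 14.4, 16.3 and 15.5 at 4 years and 8.72, 7.28 and 10.3 in cattle–yak. Its 18-month replicate 3 was below all 4-year libraries. The protein disulfide isomerase *PDIA2* was the lowest of the 64 genes in adults relative to 6 months. It had 78.5, 58.0 and 32.2 CPM at 6 months and 55.9, 7.98 and 2.28 at 18 months, but 1 count in all 4-year libraries together and 3 in all cattle–yak libraries together, so no fold is given. The fifth member, *SEL1L3*, is taken up below.

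Secreted and cell surface enzymes included the most translated member. *SOD3*, the extracellular superoxide dismutase, had a mean FPKM of 9732 ± 3741 at 6 months (SD, n = 3), the highest of the set per length. Its CPM was 10833, 8268 and 4733 at 6 months, 4790, 729 and 401 at 18 months, 119, 101 and 124 at 4 years and 412, 556 and 473 in cattle–yak. In 18-month replicate 3 *SOD3* was slightly below all cattle–yak libraries, and the adult groups were apart. A gene described as phospholipase A2 (ENSBGRG00000026299) had 1488, 1992 and 1602 CPM at 6 months and 1512, 165 and 141 at 18 months. All of its adult libraries were between 10.4 and 20.1 CPM. A gene described as kallikrein-1 (ENSBGRG00000016463), a serine protease, had 1481, 1490 and 883 CPM at 6 months, 483, 31.6 and 8.03 at 18 months and 3.50 to 6.61 in adult libraries. These enzymes had in common that 18-month replicate 1 was several times above the other 18-month libraries. *HS6ST2*, which adds sulfate to heparan sulfate chains, had 82.0, 85.5 and 84.5 CPM at 6 months, 180, 30.2 and 14.7 at 18 months, 0.787, 1.51 and 0.491 at 4 years and 0.741, 0.362 and 1.22 in cattle–yak. Its 18-month replicate 1 was above every 6-month library. The metalloproteases *ADAMTS17*, *ADAM33* and *MMP16* had 6-month means of 123 ± 20.8, 18.0 ± 6.07 and 50.6 ± 11.5 CPM (SD, n = 3 each).

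Signals, receptors and their regulators counted 11 members. *CHGA* encodes chromogranin A, a protein of secretory granules that is cut into peptide hormones. It had 5010, 2953 and 2433 CPM at 6 months, 1164, 235 and 217 at 18 months, 21.2, 28.1 and 16.3 at 4 years and 33.4, 21.6 and 30.3 in cattle–yak. Its 6-month mean of 3465 CPM was 158 times the 4-year mean and 122 times the cattle–yak mean, and the adult groups overlapped. *IGFBP3*, which binds insulin-like growth factors in the extracellular fluid, had 180, 220 and 260 CPM at 6 months, 18.2, 11.3 and 27.2 at 18 months, 9.61, 5.32 and 4.17 at 4 years and 3.23, 4.14 and 2.86 in cattle–yak. All 3 of its 18-month libraries were low and close together, unlike those of most members. *CHRD* and *CHRDL1* encode chordin and chordin-like 1, which bind bone morphogenetic proteins and keep them from their receptors. The CPM of *CHRD* was 112, 79.2 and 60.9 at 6 months, 7.69, 2.35 and 1.79 at 18 months, and 0.672 to 1.33 in adult libraries. *CHRDL1* had 26.5, 26.7 and 24.2 CPM at 6 months, 5.29, 2.30 and 3.71 at 18 months, 2.02, 1.96 and 2.33 at 4 years and 3.31, 3.47 and 3.41 in cattle–yak. Both antagonists had all 18-month libraries below all 6-month ones. *VEGFD*, a growth factor for lymphatic vessels, had 23.5, 34.3 and 32.9 CPM at 6 months and 42.5, 9.01 and 15.8 at 18 months, with 0.448 to 2.63 in adult libraries. *TFF2*, a trefoil peptide of mucosal surfaces, had 95.6, 43.3 and 56.0 CPM at 6 months, 101, 18.0 and 17.9 at 18 months and 0.112 to 1.40 in adult libraries. The axon guidance ligand *SEMA6D* had 78.2, 62.6 and 78.1 CPM at 6 months and 78.6, 19.1 and 25.4 at 18 months, with adult libraries from 4.72 to 7.47. In *VEGFD*, *TFF2* and *SEMA6D* alike, 18-month replicate 1 was above all 6-month libraries and the other replicates were below them. *ERBB2*, the receptor tyrosine kinase, had a 6-month mean of 87.6 ± 17.6 CPM, and *EVC2*, a protein of the primary cilium in hedgehog signalling, 68.7 ± 24.4 CPM (SD, n = 3 each).

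Adhesion and membrane proteins counted 9 members. *CXADR*, a junction protein that is the receptor of coxsackieviruses and adenoviruses, had 172, 138 and 133 CPM at 6 months, 90.8, 24.4 and 32.8 at 18 months, 5.62, 5.99 and 13.4 at 4 years and 13.0, 9.35 and 17.6 in cattle–yak. The adult groups overlapped in *CXADR*. *DSG2*, a cadherin of desmosomes, had 260, 155 and 196 CPM at 6 months and 174, 45.1 and 58.7 at 18 months. In adults it had 4.94, 5.88 and 6.13 CPM at 4 years and 9.01, 15.6 and 13.0 in cattle–yak, with no overlap. The giant cadherin *FAT2* had 170, 131 and 152 CPM at 6 months but only 18.8, 14.9 and 4.89 at 18 months, and its cattle–yak libraries were far apart with 2.03, 10.1 and 0.911. *LAMP5*, a relative of the lysosomal membrane proteins, had 34.3, 19.5 and 22.2 CPM at 6 months, 9.50, 1.83 and 0.530 at 18 months and 0.0260 to 0.393 in adult libraries. Several of its adult values were near the limit of detection. Podoplanin (ENSBGRG00000021152), a surface glycoprotein of lymphatic endothelium and stroma, had 71.2, 67.6 and 61.3 CPM at 6 months, 0.618, 0.616 and 0.797 at 4 years and 2.32, 3.39 and 2.16 in cattle–yak.

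Transporters and channels counted 8 members. *SLC34A2*, a sodium–phosphate cotransporter, had 78.0, 44.1 and 50.3 CPM at 6 months, 10.2, 1.97 and 0.815 at 18 months, 1.12, 1.51 and 2.88 at 4 years and 0.0570, 0.0518 and 0.286 in cattle–yak. Its cattle–yak values rest on 3, 2 and 11 counts. *SLC22A16*, a carnitine transporter known from testis, had 88.4, 63.3 and 55.2 CPM at 6 months, 33.6, 8.12 and 3.87 at 18 months, 4.27, 2.85 and 4.54 at 4 years and 0.342, 0.414 and 0.572 in cattle–yak. In both genes the hybrid was below the adult yak in every library. The potassium channel *KCNK3* had 14.1, 12 and 14.98 CPM at 6 months, 8.19, 3.24 and 4.60 at 18 months, 0.787, 0.560 and 0.368 at 4 years and 1.69, 1.71 and 0.963 in cattle–yak. The glutamate receptor *GRIA3* and the ATP-gated channel *P2RX7* had 6-month means of 77.9 ± 31.1 and 13.7 ± 4.83 CPM (SD, n = 3 each).

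Intracellular proteins were the largest group, with 12 members. *NRK*, a kinase known from placenta, had 608, 648 and 929 CPM at 6 months, 271, 119 and 173 at 18 months, 12.6, 14.4 and 27.2 at 4 years and 63.6, 70.8 and 72.4 in cattle–yak. *ZFPM2*, the cofactor of GATA4 that is needed for testis formation in the embryo, had 39.9, 46.8 and 48.4 CPM at 6 months, 11.5, 5.26 and 7.01 at 18 months, 2.75, 2.41 and 2.45 at 4 years and 3.63, 2.41 and 2.39 in cattle–yak. Its partner *GATA4* was no member and had an FPKM of 65.4 to 73.0 in cattle–yak, against 73.5 to 91.1 at 6 months and 13.9 to 19.6 at 4 years. *MAGEL2*, an imprinted gene, had 12.9, 13.7 and 12.7 CPM at 6 months and 9.45, 2.11 and 2.69 at 18 months. In adults it had 0.0562, 0.112 and 0.552 CPM at 4 years and 0.627, 0.725 and 0.312 in cattle–yak. *PDLIM4*, a scaffold protein on actin fibres, had 61.3, 82.7 and 60.5 CPM at 6 months and 99.9, 38.7 and 59.2 at 18 months. Its 18-month mean was 96.7% of the 6-month mean, the highest of the 64. The lipid droplet protein *PLIN4* had 64.1, 53.5 and 49.2 CPM at 6 months, 31.1, 8.40 and 4.81 at 18 months and 0.728 to 2.95 in adult libraries. The remaining 4 members have no clear role, and the highest of them per length, ENSBGRG00000001773, described as a hypothetical protein, had 4736, 3454 and 2963 CPM at 6 months and 218.6, 239 and 209 in cattle–yak.

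**Figure D2:**
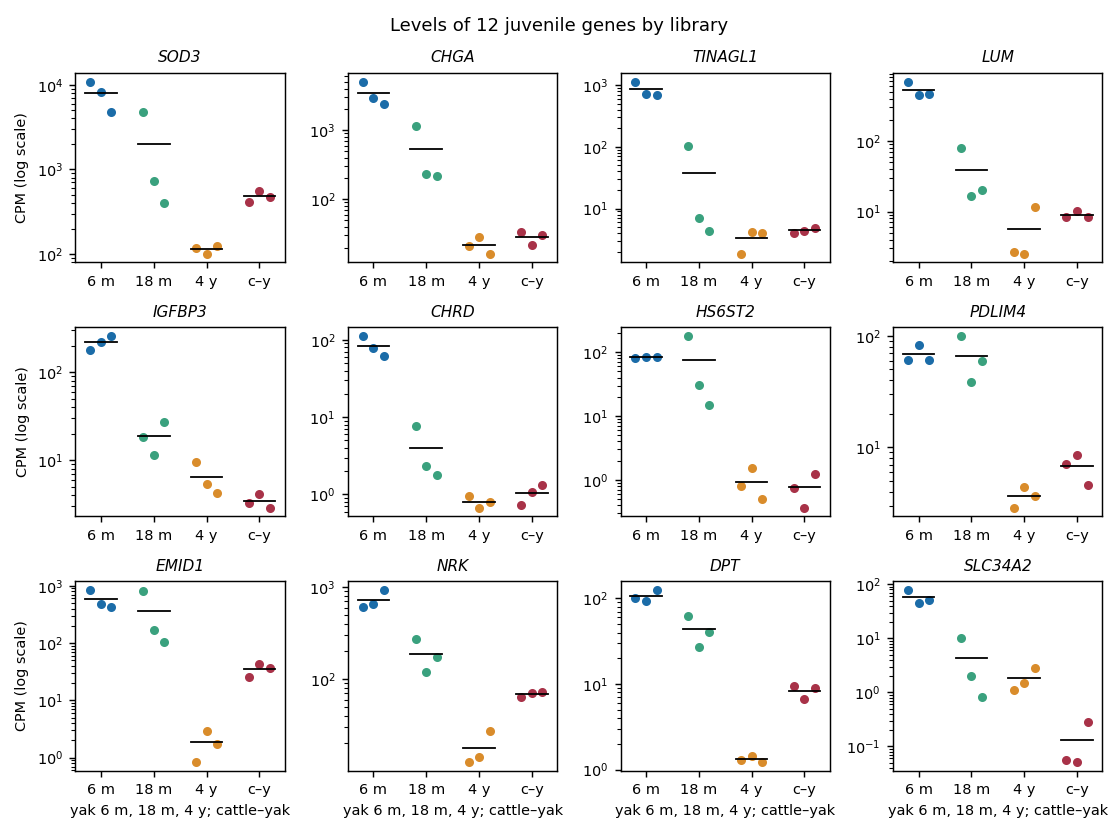
CPM (log scale) of 12 of the genes in the 3 libraries of each group (points, replicates 1 to 3 from left to right; line, mean); c–y is cattle–yak. In most panels 18-month replicate 1, the leftmost green point, is nearest to 6 months, and *EMID1*, *NRK* and *DPT* are higher and *SLC34A2* lower in cattle–yak than in 4-year-old yak.

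The 18-month libraries were not used to choose the genes and show their level between the juvenile and the adult stage. All 64 genes had a mean at 18 months below that at 6 months, with a median of 26.7% and a range of 2.77% to 96.7%. The 3 animals did not share a level. The median member had 61.6% of its lowest 6-month CPM in replicate 1, 17.1% in replicate 2 and 18.2% in replicate 3. The 15% limit was met by 7 members in replicate 1, by 27 in replicate 2 and by 24 in replicate 3. Of all 7324 genes, members included, 11, 46 and 44 met it (0.15%, 0.628% and 0.601%). The limit refers to the lowest 6-month CPM, and the rule chose members by their 6-month and adult levels, so these counts are descriptions. Replicate 1 was the highest 18-month library for 60 of 64 members, a place it took for 27.1% of the 7324 genes, and 17 members were in it at or above their lowest 6-month value. In replicates 2 and 3 only 0 and 2 members were, although 83.8%, 70.2% and 75.6% of the 7324 genes were at or above theirs in replicates 1, 2 and 3. Replicate 3 was the highest for *IGFBP3*, *ERBB2*, *GJC3* and stonin-2, and replicate 2 for none. Between replicates 2 and 3 there was no common order, since replicate 3 was the lower for 26 of 64 members and for 41.5% of the 7324 genes.

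Germ cell markers differed between the same libraries. In 18-month replicate 3 the summed FPKM was 6.67 for 11 round and 15.5 for 7 elongating spermatid markers, and in cattle–yak it was 5.87 to 15.4 and 2.99 to 28.6. In 4-year-old yak the same sums were 1868 to 2375 and 8747 to 11833. The rule had fixed the low level of the members in cattle–yak but did not use the 18-month libraries. In 18-month replicate 3 the members took 0.304% of the counts, against 0.106% to 0.131% in cattle–yak. *SYCP3*, a protein of meiotic chromosomes, had an FPKM of 0.51 to 1.84 at 6 months, 5.89, 76.4 and 43.3 at 18 months, 59.7 to 78.4 at 4 years and 77.9 to 148 in cattle–yak. The summed FPKM of 13 spermatocyte markers was 133 to 193 at 6 months, 189, 726 and 251 at 18 months, 948 to 1062 at 4 years and 335 to 487 in cattle–yak. *SYCP3* was thus higher in 18-month replicates 2 and 3 than in replicate 1. The summed FPKM of 16 gonocyte and spermatogonia markers was 477 to 616 at 6 months, 952, 1187 and 2173 at 18 months, 701 to 1008 at 4 years and 1586 to 1737 in cattle–yak. *ACTA2*, smooth muscle actin of peritubular cells, had an FPKM of 32.0 to 49.4 at 6 months, 167, 259 and 667 at 18 months, 93.9 to 115 at 4 years and 424 to 746 in cattle–yak. The summed FPKM of 13 fibroblast and stromal markers, which include the members *LUM* and *DPT*, was 2230 to 2403 at 6 months, 888, 404 and 603 at 18 months, 152 to 239 at 4 years and 375 to 578 in cattle–yak. The part of germ cells and of these other cell types in the members' levels was not tested.

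**Figure D3:**
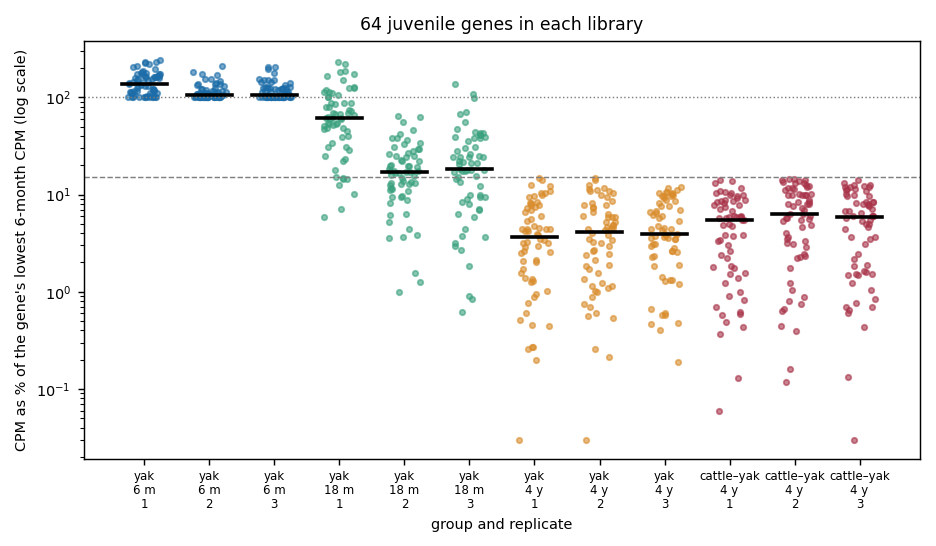
CPM of each of the 64 genes in each library as a percentage of its lowest 6-month CPM (log scale; points, genes; black line, median; dashed line, the 15% limit of the rule; dotted line, 100%; values under the axis minimum are drawn at its lowest point). The 18-month medians are 61.6%, 17.1% and 18.2%, and the adult libraries lie under the dashed line because the rule required it.

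**Figure D4:**
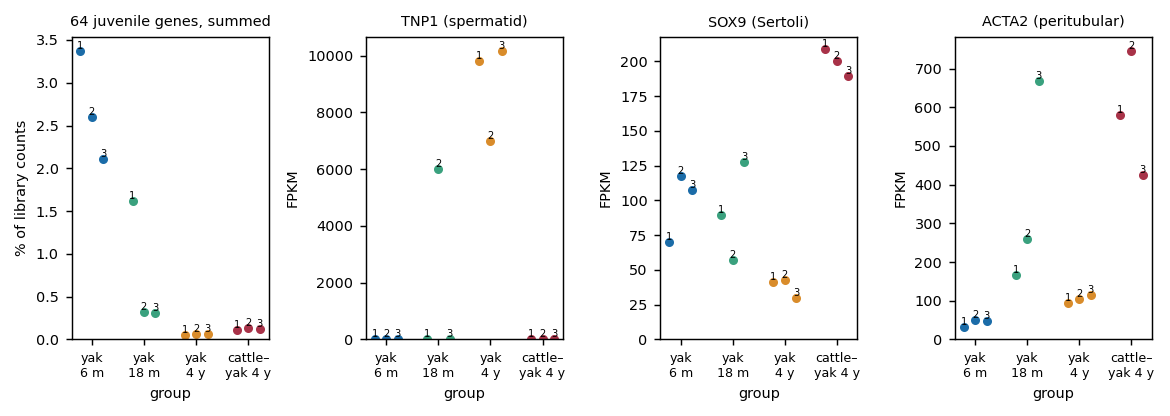
Share of each library's counts taken by the 64 genes, and FPKM of *TNP1*, *SOX9* and *ACTA2* as markers of spermatids, Sertoli cells and peritubular cells, by group (points, libraries, with their replicate number). The members' share is 1.62%, 0.320% and 0.304% in the 18-month libraries, and their low share in both adult groups was fixed by the rule.

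In the test of 18 against 6 months, 47 of 64 members had all 18-month libraries below all 6-month libraries, as had 10.6% of the 7324 genes. With edgeR's quasi-likelihood test, adjusted over all 14874 genes tested, a gene was called when its adjusted p lay below 0.05 and its level at least doubled or halved. Under this call 2 members fell and 0 rose, whereas 0.0471% of all genes tested fell and 0.0202% rose. *IGFBP3* fell by 3.87 on the log2 scale (SE 0.364, adjusted p = 0.0274), and *FBLN7* fell by 3.59 (SE 0.379, adjusted p = 0.0406). Without the adjustment, 46 members were lower at p below 0.05. The share of all genes under that limit was not counted, so nothing is read from this number. The median log2 fold change of the members was -2.21, and that of all genes tested was 0.05. The 6-month libraries had chosen the members for being high, so 1 side of this comparison was used by the rule. With DESeq2, 43 members fell, against 4.87% of all genes it tested.

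The number of members called in this comparison rested on single animals. Without 18-month replicate 1, 61 of 64 members fell, against 8.08% of all genes tested, and the median log2 fold change was -3.21. The 3 not called then were *PDLIM4*, stonin-2 (ENSBGRG00000017701) and a gene described as CPAMD8 (ENSBGRG00000016753). Without replicate 2, 7 members fell, against 0.279% of all genes tested, and without replicate 3, 0 members and 0% of all genes did. Leaving out any 6-month replicate also left 0. At the low end *HAPLN3* had a log2 fold change of -5.43 (SE 0.669, adjusted p = 0.0533) and *CHRD* one of -4.72 (SE 0.729, adjusted p = 0.0533), which just missed the threshold with all libraries. The value for *PDLIM4* was -0.34 (SE 0.405, adjusted p = 0.609) and for *HS6ST2* -0.39 (SE 0.881, adjusted p = 0.802). Among members with a symbol *VEGFD*, *TFF2* and *EMID1* came next, with means at 74.2%, 70.3% and 61.3% of the 6-month mean, each with replicate 1 at or near the 6-month level. By role, the median log2 fold change was -3.59 for the 7 matrix genes and -1.71 for the 12 intracellular genes, and the difference between these groups was not tested.

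From 18 months to adulthood the members were lower again in every mean. In 4-year-old yak against 18 months the median log2 fold change was -3.31, with all 64 values below 0. However, 0 members passed edgeR's threshold in either direction, and 0.0371% of all genes tested fell. At an unadjusted p below 0.05, 56 members were lower, and the share of all genes was again not counted. Without 18-month replicate 2, the library with spermatid markers, 58 of 63 members tested fell, against 18.5% of all genes tested. Without replicate 1, 6 fell, against 0.116%, and without replicate 3, 0 did. DESeq2 called 50 members and 11.6% of all genes lower. In cattle–yak against 18 months, 23 members fell and 0 rose, against 2.34% and 3.45% of all genes tested. DESeq2 called 54 members and 8.63% of all genes lower. Among the 23 were *HS6ST2* with a log2 fold change of -6.87 (SE 1.28, adjusted p = 0.0360), *CHGA* with -4.51 (SE 0.863, adjusted p = 0.0379), *PDLIM4* with -3.49 (SE 0.510, adjusted p = 0.0265) and *P4HA2* with -1.99 (SE 0.400, adjusted p = 0.0419). Without 18-month replicate 1, 2 or 3 the count was 18, 52 or 5, against 0.641%, 8.04% or 0.514% of all genes, and it was 0 without any of the 3 cattle–yak replicates. Over all 18-month libraries, 47 of 64 members had each of them above each adult library, as had 7.8% of the 7324 genes. Both comparisons share the 18-month libraries, and the adult libraries had chosen the members for being low.

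The comparison of cattle–yak with yak at 4 years asks whether the hybrid reached the same low level. The rule held both groups down but did not fix which was higher. Of 64 members 61 could be tested, since *LAMP5*, *PDIA2* and *GJC3* had too few adult counts. In cattle–yak 10 members rose and 3 fell, against 17.1% and 27% of all 16498 genes tested, and 48 were not called. Among the genes with 10 CPM at 6 months 22.9% rose and 8.47% fell. Their median log2 fold change was 0.39, and that of the members was 0.34. A gene that stayed high in either adult group could not be a member, whereas the other genes had no such limit. The members' median and shares therefore cannot be compared with those of other genes, and nothing particular to the members is read from them. The cattle–yak libraries were all above the yak libraries for 17 of 64 members and all below for 10, against 51.2% and 21.9% of the 7324 genes. The same limit of the rule applies to these counts.

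The members that rose in cattle–yak came from several roles. *EMID1* rose most, by 4.24 on the log2 scale (SE 0.392, adjusted p = 3.37e-05), from a mean of 1.84 to 34.8 CPM. Dermatopontin (*DPT*) rose by 2.67 (SE 0.257, adjusted p = 4.2e-05), *SOD3* by 2.07 (SE 0.152, adjusted p = 9.56e-06) and *NRK* by 1.95 (SE 0.266, adjusted p = 0.000300). Even so, *EMID1* in cattle–yak was at most 9.86% of its lowest 6-month level, and *SOD3* at most 11.7%. Among genes without a symbol podoplanin rose by 1.96 and the gene described as CPAMD8 by 3.52, and the latter had at most 6 counts in each yak library. *KCNK3* (log2 1.35, adjusted p = 0.0305), *DSG2* (1.16, adjusted p = 0.00259), *GRIA3* (1.09, adjusted p = 0.0167) and the gene described as MS4A8 (1.53, adjusted p = 0.000629) completed the list. *DSG2* and *GRIA3* were not called without cattle–yak replicate 2, nor was *KCNK3* without yak replicate 2 or 3 or cattle–yak replicate 1 or 2. Among non-member markers of the cells around the tubules, 9 of 11 fibroblast and stromal, 12 of 12 smooth muscle and 5 of 6 Leydig cell markers tested rose in cattle–yak, and 0 of these fell. Of endothelial markers 3 of 14 rose and 1 fell, of macrophage markers 1 of 9 rose and 2 fell, and of lymphocyte markers 0 of 8 rose and 2 fell. Inside the tubules 7 of 12 immature and 4 of 9 mature Sertoli cell markers rose and 0 fell. Of gonocyte and spermatogonia markers 7 of 16 rose and 2 fell, and of spermatocyte markers 0 of 13 rose and 9 fell. All 11 round and 7 elongating spermatid markers fell. Of all genes tested 17.1% rose and 27% fell. The part of these shifts in the members' values was not tested.

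The members that fell in cattle–yak were 2 transporters and *SEL1L3*. *SLC34A2* fell by 3.79 on the log2 scale (SE 0.727, adjusted p = 0.00199), *SLC22A16* by 3.12 (SE 0.371, adjusted p = 0.000138) and *SEL1L3*, a relative of an adaptor in the degradation of misfolded proteins, by 1.60 (SE 0.378, adjusted p = 0.00584). *SEL1L3* had 60.2, 34.4 and 36.7 CPM at 6 months, 16.3, 4.69 and 2.77 at 18 months, 4.33, 3.97 and 2.39 at 4 years and 0.817, 1.14 and 1.59 in cattle–yak. It is the member that lies near *SLC34A2* on the chromosome, and a link between their position and their levels was not tested. *IGFBP3* and *PCOLCE2*, although below yak in every cattle–yak library, were not called. In edgeR's test *PCOLCE2* had a log2 fold change of -0.81 (adjusted p = 0.00419) and missed only the limit on size. *CKAP4* missed only that limit likewise (-0.48, adjusted p = 0.00895), as did ENSBGRG00000001773 in the other direction (0.98, adjusted p = 0.00129). The value for *IGFBP3* was -0.90 (adjusted p = 0.0520). These are examples of members without a call.

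**Figure D5:**
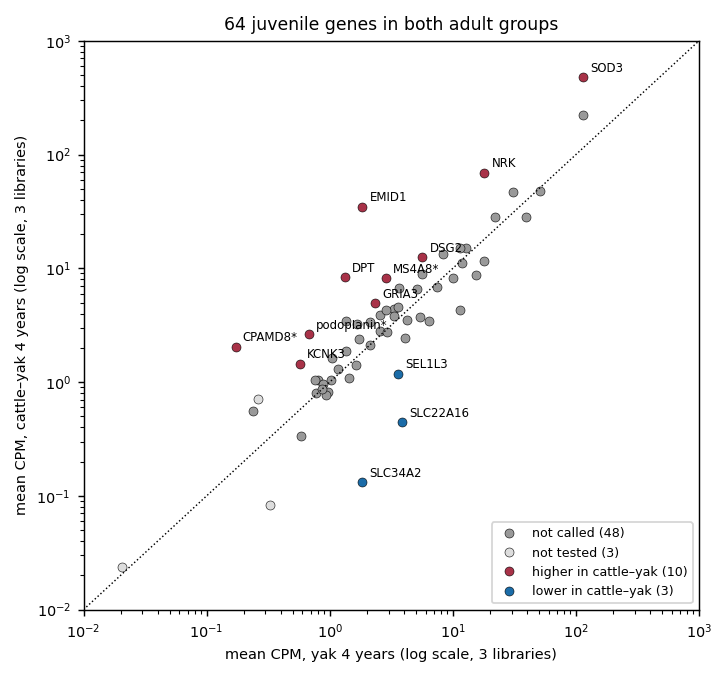
Mean CPM of the 64 genes in 4-year-old yak (x axis) and cattle–yak (y axis), both on log scales, 3 libraries each; red and blue, genes called higher and lower in cattle–yak by edgeR; dotted line, equal levels. Most genes lie near the line, *EMID1* lies farthest above it and *SLC34A2* farthest below.

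The pathways around the named members were looked at through gene lists. Only genes that reached 10 CPM at 6 months and are no members are counted here, since the rule fixed the direction of the members. In the TGF-beta and BMP pathway, which holds the members *CHRD* and *CHRDL1*, 14 of 16 such genes had all adult libraries below all 6-month libraries, as had 17.8% of the 7324 genes. The same held for 16 of 20 collagen maturation enzymes, 9 of 12 proteoglycans, 8 of 11 genes of the IGF axis, 6 of 8 fibroblast and stromal markers, 13 of 20 axon guidance genes, 5 of 9 imprinted genes and 5 of 9 developmental transcription factors. Among lists that hold 0 members it was 17 of 27 matrix glycoproteins, 6 of 14 Wnt and 4 of 6 FGF pathway genes, 6 of 7 endothelial and 5 of 6 macrophage markers, 4 of 9 immature and 0 of 8 mature Sertoli cell markers, 4 of 6 Leydig cell markers, 1 of 9 smooth muscle markers and 1 of 11 cell cycle genes. These counts are descriptions, and nothing particular to a list is read from them. In cattle–yak against 4-year-old yak all tested list genes that are no members were counted, without the limit of 10 CPM at 6 months. Of 21 proteoglycan genes 7 rose and 3 fell, and in the TGF-beta and BMP pathway 5 of 33 rose and 2 fell. Of 42 matrix glycoproteins 16 rose and 5 fell, of 28 collagen maturation enzymes 4 rose and 3 fell, and of 16 FGF pathway genes 6 rose and 1 fell. Of all genes tested 17.1% rose and 27% fell, and nothing particular to a list is read from these counts.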

How the data were processed

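Ribo-seq was done on testis of 12 animals in 4 groups of 3. Per the methods and labels, the authors trimmed reads with fastp, removed rRNA with Bowtie2, kept reads of 20 to 40 bp, aligned them to the yak genome BosGru 3.0 with STAR and counted them per gene with RSEM. The deposited expected counts are whole numbers and are not normalized. The deposited FPKM values divide them by effective length and library total. The columns of the authors' own comparisons (3 tables of fold changes and p-values) and 2 tables of group means were not used.

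CPM, ranges and shares were computed in Python 3.11.15 with pandas 2.3.3. Counts were tested with edgeR 4.0.16 (R 4.3.3): filterByExpr, TMM scaling, quasi-likelihood fit on the 6 libraries compared, Benjamini-Hochberg adjustment over all genes tested, and a call at adjusted p below 0.05 with a log2 fold change of at least 1. The SE is the log2 fold change divided by the square root of F. DESeq2 1.42.0 and limma 3.58.1 were alternatives. The fits were also run on simulated counts whose spread between libraries was the same in every group. The real 18-month libraries were further apart than those of the other groups, so that run does not vouch for calls that rest on them. The p-values of edgeR set the difference between groups against the spread between the 3 animals of each group. The estimate of that spread also draws on the other genes tested. Counting error alone underlies the limit of 3 counts, since reads carry no molecular identifiers.

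The members and gene lists were chosen with earlier results of these data known. Named were members of a list, the 12 with a symbol highest in 6-month FPKM, the 5 highest and 5 lowest at 18 months relative to 6 months, the 5 largest changes each way between adult groups, the 3 genes on each side of the limit and the 5 lowest in adults. Others were named after their values were seen to fill the roles, which were assigned after the members were known.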

Additional observations from a re-analysis of the deposited data

How the results depend on the processing

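The number of genes chosen was 35 with a limit of 10%, 98 with 20% and 113 with TMM-scaled CPM (all 64 among the last 2), and 64 to 83 with 1 of the 9 libraries left out. At 18 against 6 months, edgeR called 2 members lower, and the count was 43 with DESeq2, 13 with library size alone, 0 with no filter, 38 with all 12 libraries in 1 fit, 16 and 22 with limma on log2(FPKM + 1) and log2(FPKM + 0.1), 33 with a replicate block and 0 to 61 with 1 library left out (median log2 -3.21 to -1.84). At 4 years against 18 months it was 0, then 50 with DESeq2, 1 with library size alone, 58 with all 12 libraries, 8 and 7 with limma (median log2 -1.88 and -2.51) and 0 to 58 with 1 library left out (median -3.63 to -1.93). In cattle–yak against 18 months it was 23, then 54 with DESeq2, 15 with no filter, 55 with all 12 libraries, 0 with the replicate block and 0 to 52 with 1 library left out (median -3.19 to -1.70); limma on log2(FPKM + 1) gave a median of -1.62. Of all genes tested, these alternatives called at most 8.08%, 18.5% and 10.1% lower in the 3 comparisons. In cattle–yak against yak at 4 years, limma on log2(FPKM + 1) called 1 lower and 6 higher, against 21.7% and 13.6% of all genes tested. Leaving out 1 library gave 3 to 4 lower and 7 to 14 higher, against 24.2% to 27.2% and 16.4% to 18.3%. No called member and no median changed direction in any of these settings, and the cause of the differences between them was not tested. Of members without a call, 1 of 62, 5 of 64, 2 of 41 and 15 of 48 had a log2 fold change of the other sign in at least 1 setting, in the 4 comparisons in the order above. At 18 against 6 months this was *HS6ST2*, with 0.02 and 0.11 without 18-month replicate 2 and 3. Without 18-month replicate 1 it was *PCOLCE2* (0.12), *HAPLN3* (0.05), *FAT2* (0.15), *SLC34A2* (0.32) and a gene described as an amine oxidase (ENSBGRG00000006444, 0.20) at 4 years against 18 months, and *CHRDL1* (0.14) and the amine oxidase (0.07) in cattle–yak against 18 months. *EMID1*, *DPT*, *NRK*, *SLC22A16*, podoplanin and the gene described as MS4A8 were called in all 14 alternatives, whereas *KCNK3* was lost in 6 of them, *DSG2* and *GRIA3* in 3 each, *SEL1L3* in 2, and *SOD3*, *SLC34A2* and the gene described as CPAMD8 in 1 each. Library size alone moved the median log2 fold change of all genes tested to 0.40 at 18 against 6 months and to 0.19 at 4 years against 18 months. Same-numbered libraries did not deviate together (correlations from -0.35 to 0.13), so the numbers were not taken as pairs. *PDIA2*, at or near the limit of 3 counts in adults, cannot be ordered between the adult groups at this depth.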
